A study of Mus musculus with 4 samples.

Results

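The nuclear genes for subunits of the mitochondrial respiratory chain and ATP synthase were examined in mouse colon tumour tissue from libraries labelled Gsk3b (IEC+/+) and Gsk3b (IEC-/-). Members were all symbols in the count tables whose names follow the patterns of complex I (Nduf with a letter a, b, c, s or v and a digit), complex II (Sdha to Sdhd), complex III (Uqcr), complex IV (Cox4 to Cox8) and complex V (Atp5), without names ending in -ps, os or Rik. This gave 88 members of 26214 symbols, of which 82 passed the expression filter and were tested among 16637 genes. Members encoded by mitochondrial DNA are not in the pattern and were not analysed here. The gene for acyl carrier protein (Ndufab1), cytochrome c1 (Cyc1) and cytochrome c (Cycs) also lie outside the name pattern and are given beside it.

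Polyadenylated RNA was sequenced from 4 samples of colon cancer tissue. The tumours arose under AOM/DSS, a regimen that joins the carcinogen azoxymethane to colitis from dextran sulfate sodium in the drinking water. The labels name 2 libraries Gsk3b (IEC+/+) and 2 libraries Gsk3b (IEC-/-), and all 4 share the AOM/DSS treatment. The kinase encoded by Gsk3b phosphorylates beta-catenin and thereby limits Wnt signalling. The labels do not spell out IEC and give no strain, age, sex, Cre driver or deleted exon. Nor is it stated that the libraries were made from different animals, and the p-values therefore measure only the spread between these samples, which may be technical.

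Complex I oxidises NADH and complex II oxidises succinate, and both pass electrons through coenzyme Q to complex III. Cytochrome c carries the electrons on to complex IV, which reduces oxygen, and the proton gradient that complexes I, III and IV build drives ATP synthesis by complex V. Colonocytes are known for oxidising butyrate in their mitochondria, and tumour cells for a larger part of glycolysis in their energy supply.

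Total counts were 25472503 to 27218515 per library. Gsk3b itself had 170 and 157 CPM (reads relative to the TMM-scaled library total) in IEC+/+ against 152 and 149 CPM in IEC-/-, a log2 difference of -0.12 (SE 0.12, edgeR adjusted p = 0.681). The mRNA level of the whole tissue therefore did not check the labels, and the groups are the libraries as labelled. Pairs of levels are replicates 1 and 2, with IEC+/+ before IEC-/-, and a signed number in brackets is the log2 fold change of IEC-/- over IEC+/+. Of 16 general epithelial markers, 0 were without any count over the 4 libraries together, and 14 of the 16 had a lower mean in IEC-/-. Their summed level was 14360 and 12480 CPM in IEC+/+ compared with 8588 and 8369 CPM in IEC-/-. In bulk tissue, fewer cells of a type and less RNA per cell cannot be told apart.

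Respiratory chain mRNAs were lower on average in the IEC-/- libraries, in all 5 complexes, by amounts that did not pass edgeR's test for any single gene, while DESeq2 called 2. Of 82 members tested, 72 had a lower mean in IEC-/-, which is 87.8%, against 48.5% of all genes tested. The median log2 fold change was -0.24 (15% lower), against 0.01 over all genes. Single members ranged from -0.92 (Cox7a1) to 1.58 (Ndufa4l2). By edgeR's quasi-likelihood test with Benjamini-Hochberg adjustment over all genes, 0 members were called lower and 0 higher at an adjusted p under 0.05, where 0.763% and 0.12% of all genes were called. At an unadjusted p under 0.05, 16 members were lower and 0 higher, against 9.12% and 7.5% of all genes. Adjusted p-values of members ran from 0.103 to 0.984.

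In 61 members the groups did not overlap and IEC-/- was the lower, which is 74.4% of those tested, against 24.1% of all genes. In 4 members (Ndufa4, Ndufa4l2, Ndufc2 and Ndufv3) IEC-/- was the higher, against 24% of all genes, and in 17 the groups overlapped. DESeq2 on the same counts called 2 members lower, Cox5a (DESeq2 adjusted p = 0.00514) and Cox6a1 (DESeq2 adjusted p = 0.0142), and 0 higher, where it called 5.04% and 2.95% of all genes. The count at an unadjusted p under 0.05 by edgeR varied when 1 library was left out. It was 2 without IEC+/+ replicate 1 (4.71% of all genes), 5 without IEC+/+ replicate 2 (6.44%), 8 without IEC-/- replicate 1 (9.54%) and 13 without IEC-/- replicate 2 (9.79%), and in each of these fits the lone library of a group was assumed to vary like the others. With the replicate number as a block it was 15 (9.53%).

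No fit with edgeR called a member lower at an adjusted p under 0.05. The share of all genes called lower was 0.739% with RLE size factors, 1.49% without a filter, 1.04% with the block and 0.331% with a length and GC offset. It was 0% without either IEC+/+ library, 2.51% without IEC-/- replicate 1 and 2.45% without IEC-/- replicate 2, and the shares called higher in these fits were 0%, 2% and 1.06%. Leaving out IEC-/- replicate 1 gave the only member called higher, Ndufa4l2.

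**Figure D1:**
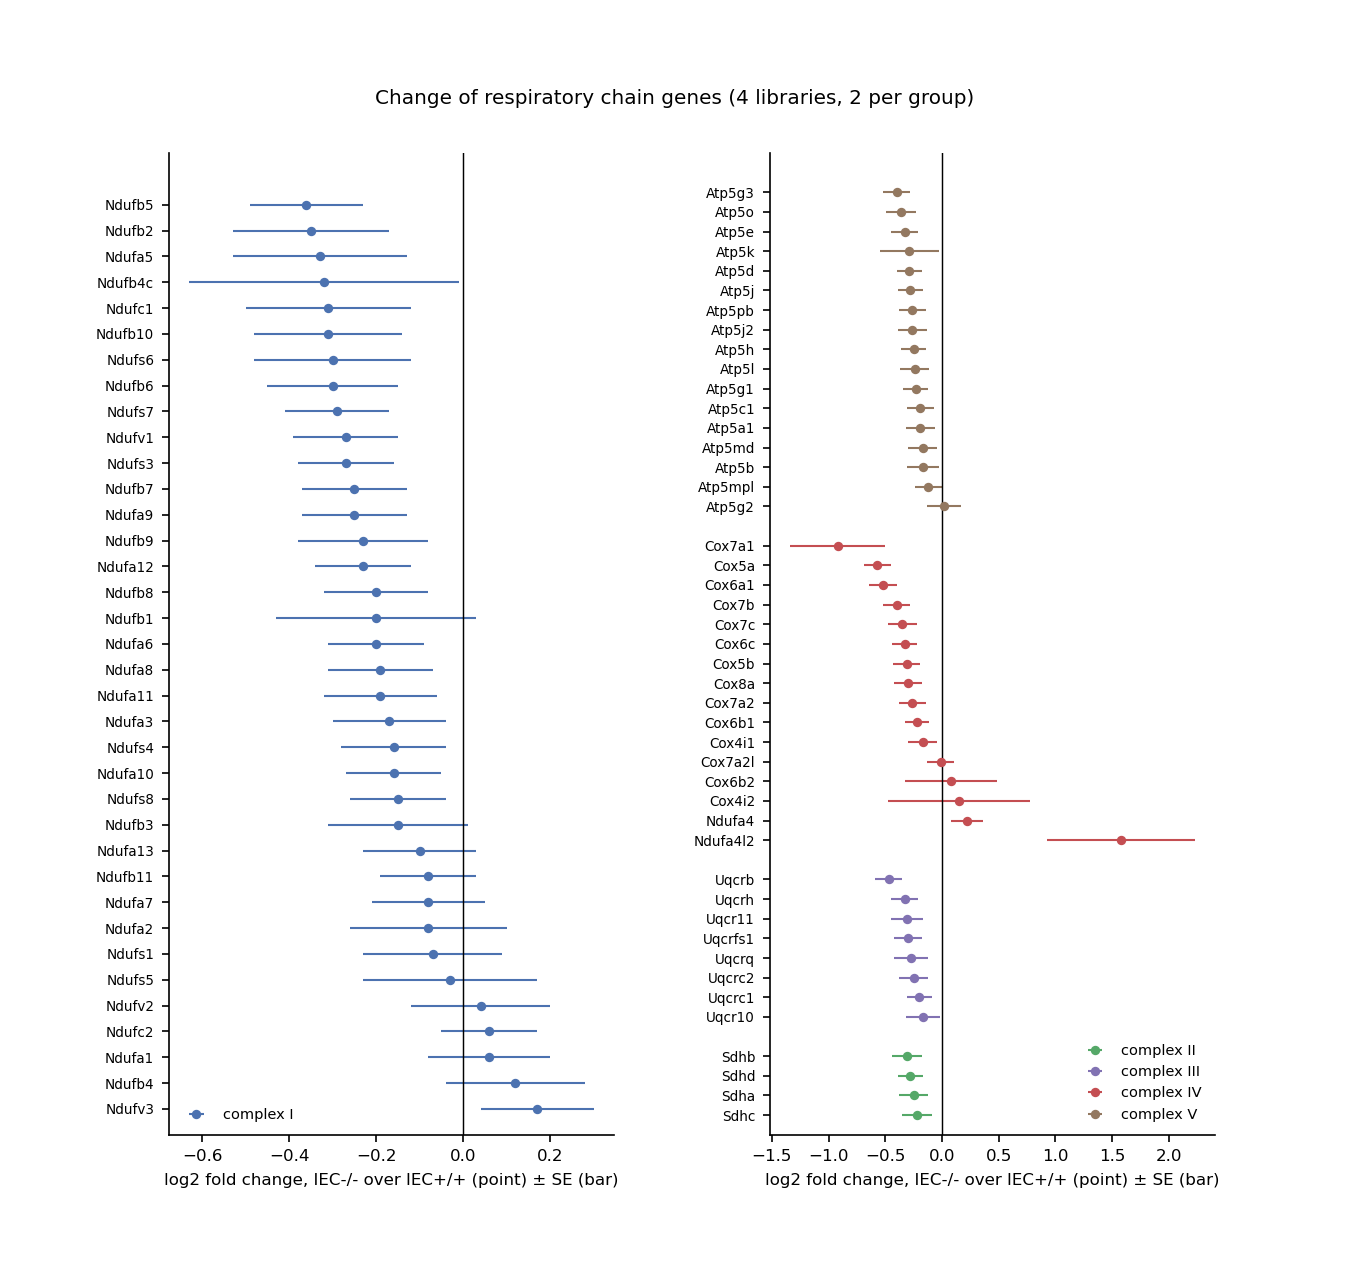
The log2 fold change of IEC-/- over IEC+/+ is plotted on the horizontal axis for 81 of the members tested, by complex, with a bar for the standard error. Most points lie to the left of 0, and Ndufa4l2 alone lies beyond 1 on the right, at 1.58.

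Most members stood lower in each IEC-/- library than in each IEC+/+ library. Relative to each gene's mean over the 4 libraries, the median member stood at 0.129 and 0.095 (log2) in IEC+/+ replicates 1 and 2, and at -0.141 and -0.088 in IEC-/- replicates 1 and 2. Between groups, the median member was lower by a log2 difference of -0.28 (IEC-/- replicate 1 against IEC+/+ replicate 1), -0.23 (1 against 2), -0.22 (2 against 1) and -0.17 (2 against 2), with 76, 74, 69 and 66 of the 82 members lower. Within groups the corresponding median was -0.02 in IEC+/+ and 0.06 in IEC-/-, replicate 2 against replicate 1. The median over all genes was within 0.01 of 0 in the same comparisons between groups. Summed over members, the level was 8602 and 8439 CPM in IEC+/+ and, in IEC-/-, 7394 and 7286 CPM.

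**Figure D2:**
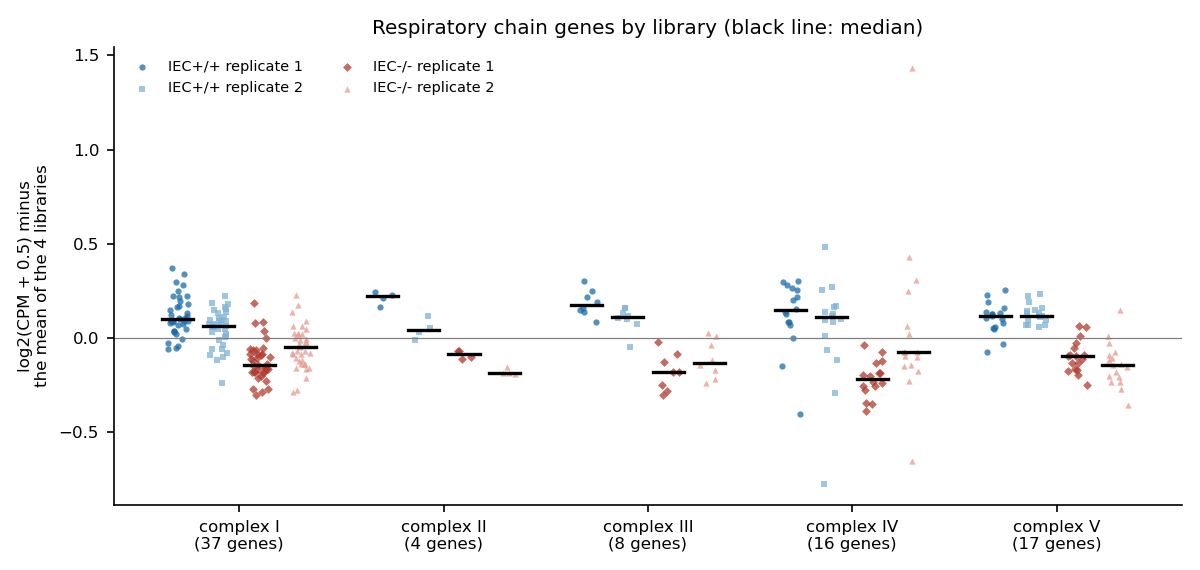
Each point is 1 member in 1 library, as log2(CPM + 0.5) minus that gene's mean over the 4 libraries on the vertical axis. Libraries are set side by side within each complex along the horizontal axis, and a black line marks the median of that complex in that library. The lines for complex I are at 0.102 and 0.065 in IEC+/+ and -0.145 and -0.044 in IEC-/-. Over all members, which have no line, the medians are 0.129 and 0.095 in IEC+/+ and -0.141 and -0.088 in IEC-/-.

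Complex IV, cytochrome c oxidase, held the members with the smallest p-values. Cox5a, a subunit at the matrix side of the complex (chr9:57517328-57532427, GRCm38), had 123.7 and 121.5 CPM in IEC+/+ compared with 79.06 and 85.92 CPM in IEC-/-. The libraries of each group lay close together and the groups did not overlap. The log2 fold change was -0.57 (SE 0.12, edgeR adjusted p = 0.103), and the 95% interval of the ratio was 0.550 to 0.823.

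Cox6a1 (chr5:115345652-115348958), the form of subunit VIa found in most tissues, had 179.8 and 178.8 CPM in IEC+/+ and, in IEC-/-, 117.1 and 132.6 CPM. The groups were well separated, by a log2 of -0.52 (SE 0.12, edgeR adjusted p = 0.134). Cox7b, a small membrane subunit, had 81.56 and 72.77 CPM against 56.11 and 60.61 CPM (-0.40, edgeR adjusted p = 0.213). Cox6c, another small membrane subunit, had 90.08 and 85.67 CPM against 68.77 and 70.68 CPM (-0.33, edgeR adjusted p = 0.242). In each of these the groups were apart.

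Cox7a2l and Ndufa4, which are also widely expressed, are left out of this count and given below. The other 10 subunits of complex IV that are made in most tissues all had a lower mean and non-overlapping groups, against 24.1% of all genes. Their median was -0.32, or 19.9% lower. In 7 of the 10 the mean was lower at an unadjusted p under 0.05 by edgeR, against 9.12% of all genes. Cox4i1, the largest nuclear subunit and the most abundant of complex IV per kilobase of transcript (375 CPM per kb in IEC+/+ and 333 in IEC-/-), differed least among them. It had 278.8 and 279.2 CPM in IEC+/+ compared with 229.5 and 267.3 CPM in IEC-/-, so that only IEC-/- replicate 1 was far from the others (-0.17, edgeR adjusted p = 0.582). The 10 genes summed to 1266 and 1247 CPM in IEC+/+ and, in IEC-/-, 950.8 and 1051 CPM. Over the 16 tested members of complex IV, 15 were higher in IEC-/- replicate 2 than in replicate 1, with a median difference of 0.15 (log2).

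**Figure D3:**
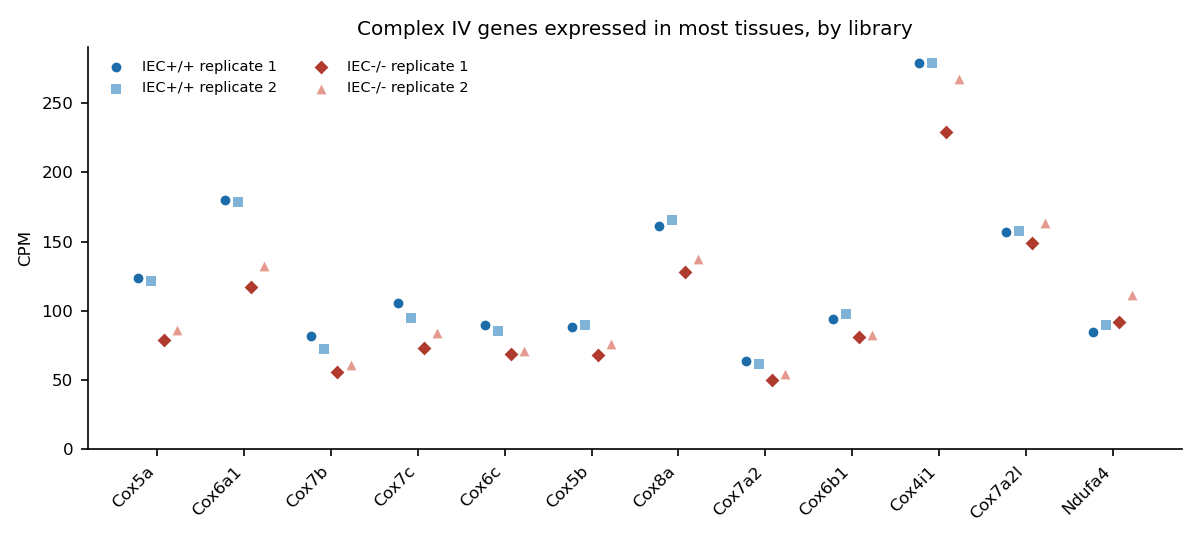
The level in CPM (vertical axis, from 0) of each widely expressed complex IV gene is shown for each of the 4 libraries. In 10 of the genes both IEC-/- points lie below both IEC+/+ points, the exceptions being Cox7a2l and Ndufa4, and Cox5a stands at 79.06 and 85.92 against 123.7 and 121.5 CPM.

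Cox7a2l and Ndufa4 differed from the 10 in direction or size, a contrast that was not tested. Cox7a2l, which links complex IV to complex III in supercomplexes, had 156.7 and 157.8 CPM in IEC+/+ compared with 148.7 and 163.7 CPM in IEC-/-. The groups overlapped, with a log2 fold change of -0.01 and a 95% interval of the ratio of 0.809 to 1.22 (edgeR adjusted p = 0.984). Ndufa4, named for complex I but found in complex IV by later biochemical work, had 84.60 and 89.79 CPM in IEC+/+ and, in IEC-/-, 91.72 and 111.8 CPM. Both IEC-/- libraries were above both IEC+/+ libraries, by a log2 of 0.22 (SE 0.14, edgeR adjusted p = 0.504), and IEC-/- replicate 2 was the highest.

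Ndufa4l2 (chr10:127509274-127517154), a paralog of Ndufa4 known to be induced by hypoxia, had the largest difference of any member, and it rested on 1 library. It had 2.740 and 2.006 CPM in IEC+/+ compared with 3.093 and 11.09 CPM in IEC-/-. The groups were apart, but IEC-/- replicate 1 was close to the IEC+/+ libraries and IEC-/- replicate 2 stood far above all 3. The log2 fold change was 1.58 (SE 0.65, edgeR adjusted p = 0.311) with a ratio of 0.976 to 9.12. It was 0.38 without IEC-/- replicate 2 (edgeR adjusted p = 0.785) and 2.22 without IEC-/- replicate 1 (edgeR adjusted p = 0.0319), the one member called higher in any fit.

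Isoforms of complex IV that are restricted to heart and skeletal muscle, to lung or to testis were rare in this tissue. Cox7a1, the muscle form of subunit VIIa, had 3.049 and 3.519 CPM in IEC+/+ and, in IEC-/-, 2.122 and 1.334 CPM, with groups apart (-0.92, SE 0.42, edgeR adjusted p = 0.357). Per kilobase it made up 7.45% and 8.79% of Cox7a1 and Cox7a2 together in IEC+/+ and 6.63% and 3.98% in IEC-/-. Its partner Cox7a2 had 63.49 and 61.26 CPM against 50.14 and 54.02 CPM (-0.26, edgeR adjusted p = 0.344). Markers of skeletal and cardiac muscle were near 0 in all libraries: 3 of 14 passed the filter, those 3 summed to 7.835 and 5.979 CPM in IEC+/+ compared with 4.064 and 3.698 CPM in IEC-/-, and Myh1, Myh2, Myh4 and Myh6 had no count. Their part in the Cox7a1 values was not tested.

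Cox4i2, the lung form of subunit IV, had 0.9263 and 0.7568 CPM in IEC+/+ and, in IEC-/-, 0.5395 and 1.334 CPM, with overlapping groups (0.15, edgeR adjusted p = 0.942). It was at most 0.509% of Cox4i1 and Cox4i2 together per kilobase. Cox6b2, the testis form of subunit VIb, had 4.091 and 2.724 CPM against 2.841 and 4.384 CPM, also overlapping (0.08, edgeR adjusted p = 0.953). Its partner Cox6b1 had 93.87 and 97.59 CPM in IEC+/+ compared with 81.43 and 82.45 CPM in IEC-/- (-0.22, edgeR adjusted p = 0.397). Cox8a, the widely expressed form of subunit VIII, had 161.0 and 165.4 CPM against 127.8 and 137.8 CPM (-0.30, edgeR adjusted p = 0.293).

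A further 6 members did not pass the expression filter. Cox6a2, the muscle form of subunit VIa, had 0 and 0 counts in IEC+/+ and 1 and 1 in IEC-/-. Cox8b, the muscle form of subunit VIII, had 0 and 7 counts against 1 and 10, and the pseudogene entry Cox7c-ps1 had 6 and 3 against 7 and 5. Cox7b2 and Cox8c, both testis forms, and Ndufa11b had no count in any library, which allows levels up to 0.108 to 0.116 CPM, counting error only. Of the 9 germ cell markers listed, 0 passed the filter.

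**Figure D4:**
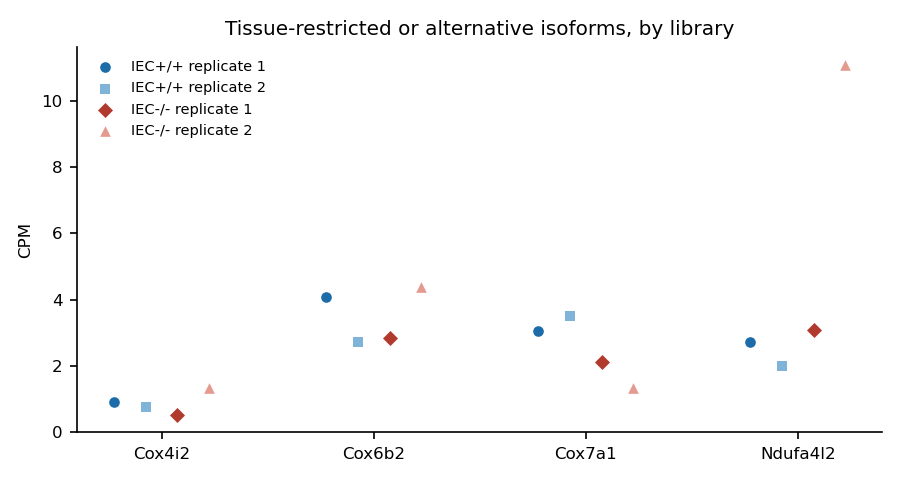
Levels in CPM (vertical axis, from 0) of the alternative isoforms of complex IV that were tested are plotted for the 4 libraries. Ndufa4l2 in IEC-/- replicate 2 stands apart at 11.09 CPM, and all other points lie under 5 CPM.

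Complex III passes electrons from coenzyme Q to cytochrome c. Its 8 members all had a lower mean in IEC-/-, with a median of -0.28, and 7 had groups apart (87.5%, against 24.1% of all genes). Uqcrb (chr13:66900576-66905350), a small subunit near the coenzyme Q site, had 51.60 and 46.58 CPM in IEC+/+ and, in IEC-/-, 35.03 and 35.76 CPM. The IEC-/- libraries were almost equal and lay below both others (-0.47, SE 0.12, edgeR adjusted p = 0.160), with a ratio of 0.582 to 0.894.

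Uqcrh, the hinge protein at the cytochrome c1 face, had 104.4 and 92.52 CPM against 77.54 and 79.37 CPM (-0.33, edgeR adjusted p = 0.274). Uqcrfs1, the Rieske iron-sulfur protein and a catalytic subunit, had 172.3 and 161.6 CPM against 137.8 and 133.8 CPM (-0.30, edgeR adjusted p = 0.289). Uqcr11 had 42.88 and 42.87 CPM against 31.51 and 37.47 CPM (-0.31, edgeR adjusted p = 0.352). Groups were apart in all of these. Uqcrq, the most abundant per kilobase (251 CPM per kb in IEC+/+ and 209 in IEC-/-), had 101.9 and 101.7 CPM against 74.92 and 94.46 CPM, so that most of its difference was in IEC-/- replicate 1 (-0.27, edgeR adjusted p = 0.448). Uqcr10 was the one member of the complex with overlapping groups. Cyc1, the catalytic cytochrome c1 outside the name pattern, had 182 and 186 CPM in IEC+/+ compared with 146 and 155 CPM in IEC-/- (-0.29, edgeR adjusted p = 0.294).

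Complex II, which is also the succinate dehydrogenase of the citrate cycle, has 4 subunits, and all 4 had a lower mean and groups apart. Of all genes, 24.1% had groups apart and lower. Sdha, the flavoprotein that oxidises succinate, had 245.9 and 216.9 CPM in IEC+/+ and, in IEC-/-, 202.2 and 186.5 CPM (-0.25, SE 0.13, edgeR adjusted p = 0.409). Sdhb, the iron-sulfur subunit, had 68.43 and 59.90 CPM against 53.23 and 50.47 CPM (-0.31, edgeR adjusted p = 0.311). In both genes IEC+/+ replicate 1 was the highest library.

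The membrane anchors behaved alike in order of libraries. Sdhc had 153.6 and 130.1 CPM in IEC+/+ compared with 125.1 and 117.9 CPM in IEC-/- (-0.22, edgeR adjusted p = 0.481). Sdhd had 203.5 and 196.5 CPM against 168.9 and 159.5 CPM (-0.28, edgeR adjusted p = 0.305), and was the most abundant of the complex per kilobase (162 and 133 CPM per kb). The 4 genes were also lower in replicate 2 than in replicate 1 within IEC+/+ by a median log2 of -0.19, which approaches the median difference between groups of -0.27. None of the 4 had an unadjusted p under 0.05 by edgeR.

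Complex V, the ATP synthase, was the most abundant complex by summed level, at 3558 and 3606 CPM in IEC+/+ and, in IEC-/-, 3242 and 2949 CPM. Of its 17 members, 16 had a lower mean, 15 with groups apart (88.2%, against 24.1% of all genes), and the median was -0.25. Among genes of the catalytic F1 head, Atp5b (beta subunit, the catalytic one) had 1035 and 1048 CPM in IEC+/+ compared with 1020 and 834.9 CPM in IEC-/-. Only IEC-/- replicate 2 stood apart, and the log2 fold change was -0.17 (edgeR adjusted p = 0.618). It was the most abundant member of complex V per kilobase (544 CPM per kb in IEC+/+ and 484 in IEC-/-).

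The small F1 subunits were lower in both IEC-/- libraries. Atp5e, the epsilon subunit of the central stalk, had 61.37 and 66.79 CPM in IEC+/+ and, in IEC-/-, 50.61 and 51.23 CPM (-0.33, edgeR adjusted p = 0.253). Atp5d, the delta subunit beside it, had 227.2 and 228.6 CPM against 190.6 and 182.1 CPM (-0.29, edgeR adjusted p = 0.288). The peripheral stalk, which holds the head still, had 4 of 4 members lower with groups apart. The share was 88.2% in complex V as a whole and 24.1% of all genes. Atp5o, the OSCP subunit of the stalk, had 112.5 and 104.9 CPM against 89.70 and 79.40 CPM (-0.36, edgeR adjusted p = 0.253).

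Subunit c forms the rotor ring, and 3 genes encode the same mature protein. Atp5g3 (chr2:73908447-73912464) had 228.7 and 211.6 CPM in IEC+/+ compared with 166.9 and 166.5 CPM in IEC-/-, the lowest p of complex V (-0.40, SE 0.12, edgeR adjusted p = 0.192). Atp5g1 had 92.71 and 93.46 CPM against 80.64 and 78.18 CPM (-0.23, edgeR adjusted p = 0.384). Atp5g2 had 120.5 and 132.2 CPM against 115.6 and 140.8 CPM, with overlapping groups and a ratio of 0.789 to 1.31 (0.02, edgeR adjusted p = 0.967). The difference between the c ring genes was not tested, and stretches of Atp5g1 and Atp5g2 are shared with transcripts of other genes.

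Complex I is the largest complex, with 37 members tested, and its median was -0.19. A lower mean was seen in 32 of the 37 (86.5%, against 48.5% of all genes tested). Groups were apart and lower in 24 (64.9%, against 24.1% of all genes). In 2 the mean was lower at an unadjusted p under 0.05 by edgeR (5.41%, against 9.12% of all genes). The 7 core subunits, which carry out NADH oxidation and electron transfer, had a median of -0.18, and the 30 accessory subunits, which stabilise the complex, a median of -0.20.

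Within the core, Ndufs3, Ndufs7 and Ndufs8, of the module that reduces coenzyme Q, each had a lower mean with groups apart. Ndufs3 had 61.79 and 63.04 CPM in IEC+/+ and, in IEC-/-, 51.54 and 51.65 CPM (-0.27, SE 0.11, edgeR adjusted p = 0.300). Ndufs7, which holds the last iron-sulfur cluster, had 44.66 and 47.19 CPM against 36.11 and 39.23 CPM (-0.29, edgeR adjusted p = 0.333). Ndufs8, an iron-sulfur subunit, had 56.89 and 55.62 CPM against 51.14 and 50.32 CPM (-0.15, edgeR adjusted p = 0.568), the smallest difference of these.

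The 3 core subunits of the NADH module were mixed. Ndufv1, which binds NADH and the flavin, had 113.0 and 103.2 CPM in IEC+/+ compared with 91.72 and 87.68 CPM in IEC-/-, with groups apart (-0.27, edgeR adjusted p = 0.341). Ndufs1, the largest core subunit, had 91.71 and 75.87 CPM against 86.64 and 73.08 CPM (-0.07, edgeR adjusted p = 0.878), and Ndufv2 had 98.54 and 90.25 CPM against 108.4 and 85.12 CPM (0.04, edgeR adjusted p = 0.945). In both of the latter the groups overlapped, and replicate 1 was above replicate 2 in each group.

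Among accessory subunits, Ndufb5 of the membrane arm (chr3:32737057-32751559) had the smallest p of complex I. It had 50.48 and 47.60 CPM in IEC+/+ and, in IEC-/-, 40.75 and 35.60 CPM, groups apart (-0.36, SE 0.13, edgeR adjusted p = 0.264). Ndufa7, the most abundant per kilobase (115 CPM per kb in IEC+/+ and 109 in IEC-/-), had 57.86 and 63.46 CPM against 53.02 and 61.64 CPM, with overlapping groups (-0.08, edgeR adjusted p = 0.825). Ndufab1, the mitochondrial acyl carrier protein that also sits in complex I and lies outside the name pattern, had 64.8 and 67.1 CPM in IEC+/+ compared with 47.2 and 52.1 CPM in IEC-/- (-0.41, edgeR adjusted p = 0.194).

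A few accessory subunits had a higher mean in IEC-/-. Ndufv3, a small subunit of the NADH module, had 33.70 and 32.32 CPM in IEC+/+ and, in IEC-/-, 37.05 and 37.40 CPM, groups apart (0.17, SE 0.13, edgeR adjusted p = 0.559). Ndufc2 also had both IEC-/- libraries above both others (0.06, edgeR adjusted p = 0.845). Ndufb4 had 32.77 and 32.66 CPM against 31.18 and 39.84 CPM, with overlap (0.12, edgeR adjusted p = 0.789). Its single-exon copy Ndufb4c, whose sequence windows all occur in another transcript, had 7.835 and 5.562 CPM against 5.071 and 5.642 CPM (-0.32, edgeR adjusted p = 0.670), so reads of the pair cannot be separated with certainty.

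Levels were spread most widely within complex IV, where the 4 lowest tested members were the alternative isoforms Cox7a1, Cox6b2, Ndufa4l2 and Cox4i2. Above these, the lowest was Cox7b at 77.1 CPM per kb in IEC+/+, where Cox4i1, the highest, had 375. Per kilobase of the principal transcript, the median level in IEC+/+ was 59.5 CPM per kb for complex I, 68.0 for II, 110 for III, 150 for IV and 155 for V, and in IEC-/- it was 49.8, 56.2, 92.5, 130 and 131. Within 2-fold of their complex's IEC+/+ median lay 32 of 37 members of complex I, 7 of 8 of complex III, 10 of 16 of complex IV and 13 of 17 of complex V. The highest and lowest tested members differed 8.27-fold in complex I, 2.8-fold in III and 18.4-fold in V, and 323-fold in IV, where Cox4i2 was the lowest.

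Shared sequence could mix the counts of some members, and how such reads were counted is not given in the sources used here. In 13 tested members at least 20% of the 100-base windows of the transcripts also occur in a transcript of another gene (Atp5g1, Atp5g2, Atp5h, Atp5l, Atp5md, Atp5o, Cox7c, Ndufa13, Ndufb4, Ndufb4c, Ndufb6, Ndufs5 and Uqcrc2). Their median log2 fold change was -0.24, with 11 lower, and that of the other 69 members was -0.23, with 61 lower. Of these, Atp5o, Ndufa13 and Ndufb6 also have 47.9%, 30.0% and 39.0% of their exon bases within exons of another gene. Ndufs5 had the same count as its pseudogene entry Ndufs5-ps in all 4 libraries (862 and 625 in IEC+/+, 776 and 727 in IEC-/-), so its value (-0.03, edgeR adjusted p = 0.963) is uncertain.

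Promoters of respiratory chain genes are known to carry sites for NRF1, for ETS factors such as GABP, for YY1 and for oestrogen-related receptors (ERR). RefSeq promoter windows (GRCm38.p6, 250 bases before to 50 after a start) were found for 67 of the 82 tested members, 72 windows in all, and were searched on both strands. GCGCANGCG, for NRF1, was present in 29.2% of member windows and in 6.25% of all 32851 windows. CCGGAAG, for ETS factors, was present in 23.6% against 8.86%, AAGATGGCG, for YY1, in 9.72% against 1.4%, and TCAAGGTCA, for ERR, in 2.78% against 0.423%. The ETS and YY1 letters can overlap in their shared AAG, and the NRF1 letters can match on both strands at one place. Member windows belong to genes that passed the expression filter, whereas the windows of all genes were not limited in that way. The shares therefore compare unlike sets. A match of letters is a description, not a bound site.

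The following stretches lie before a RefSeq start site and outside annotated exons, and are shown because they hold these letters in members with low p-values in complexes IV, III and V. Each is given 5′ to 3′ on the minus strand, the strand of the gene, with the motif in capitals. Cox6a1 (chr5:115349041-115349120) has the NRF1 letters at 2 places, the first on both strands, Uqcrh (chr4:116075072-116075151) and Atp5e (chr2:174464124-174464203) have the reverse complement of the ETS letters, and Atp5g3 (chr2:73911327-73911406) has that of the ERR letters. The Atp5g3 stretch lies before a RefSeq start that is inside the RefSeq span of the gene given above.
Cox6a1: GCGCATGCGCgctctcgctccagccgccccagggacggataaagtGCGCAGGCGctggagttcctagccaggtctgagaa
Uqcrh: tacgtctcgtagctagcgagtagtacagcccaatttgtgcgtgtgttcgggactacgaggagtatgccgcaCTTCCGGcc
Atp5e: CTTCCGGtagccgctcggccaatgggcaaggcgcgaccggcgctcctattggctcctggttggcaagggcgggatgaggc
Atp5g3: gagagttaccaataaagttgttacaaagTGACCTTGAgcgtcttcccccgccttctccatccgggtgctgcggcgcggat

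Members with and without the letters are set side by side as a description. The median log2 fold change was -0.25 for the 20 members with the NRF1 letters and -0.25 for the 47 without. It was -0.28 against -0.20 for the ETS letters (17 members with them), -0.28 against -0.24 for YY1 (7 members) and -0.34 against -0.25 for ERR (2 members, Atp5g3 and Sdhd). These medians carry no test.

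The regulators that bind such letters were not called by edgeR. Nrf1 had 40.1 and 32.2 CPM in IEC+/+ compared with 38.8 and 37.9 CPM in IEC-/- (0.08, edgeR adjusted p = 0.845). Gabpa had 79.0 and 86.6 CPM against 79.7 and 64.2 CPM (-0.20, edgeR adjusted p = 0.565), and Yy1 had 181 and 195 CPM against 186 and 158 CPM (-0.13, edgeR adjusted p = 0.704). In all of these the groups overlapped. Esrra, the ERR alpha receptor, had 119 and 121 CPM against 94.3 and 90.8 CPM, groups apart (-0.38, SE 0.11, edgeR adjusted p = 0.198).

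The coactivators and the factor of mitochondrial DNA were mixed. Ppargc1a, the coactivator PGC-1 alpha, had 35.2 and 31.1 CPM in IEC+/+ and, in IEC-/-, 44.2 and 24.1 CPM (0.04, edgeR adjusted p = 0.967), so that the IEC-/- libraries were the highest and the lowest. Ppargc1b, PGC-1 beta, had 32.6 and 23.3 CPM against 19.1 and 13.8 CPM, groups apart (-0.76, SE 0.26, edgeR adjusted p = 0.246). Tfam, which packages mitochondrial DNA, had 40.1 and 44.6 CPM against 44.8 and 41.8 CPM (0.03, edgeR adjusted p = 0.937). Esrrb was near the detection limit, at 0.232 and 0.0757 CPM against 0.899 and 1.30 CPM (2.80, edgeR adjusted p = 0.164). Of 23 listed regulators, 14 had a lower mean, with a median of -0.07.

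Genes that act next to the subunits varied. Cycs, the mobile electron carrier cytochrome c, had 233 and 216 CPM in IEC+/+ compared with 169 and 151 CPM in IEC-/-, groups apart (-0.49, SE 0.13, edgeR adjusted p = 0.155). With the genes of coenzyme Q synthesis, 13 of 16 had a lower mean (median -0.23), against 48.5% of all genes tested. In 4 of the 16 the mean was lower at an unadjusted p under 0.05 by edgeR, against 9.12% of all genes. Coq10b, which had a lower mean, was at 67.7 and 53.6 CPM against 36.0 and 44.1 CPM (-0.60, edgeR adjusted p = 0.195).

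Assembly factors of complex IV were lower in 23 of 25 (median -0.15). In 4 this was at an unadjusted p under 0.05 by edgeR (16.0%, against 9.12% of all genes). Cmc2 had 14.0 and 12.3 CPM against 7.91 and 8.65 CPM (-0.67, edgeR adjusted p = 0.247), and Coa3 had 67.4 and 66.6 CPM against 53.8 and 55.2 CPM (-0.30, edgeR adjusted p = 0.270). Those of complex I were lower in 13 of 17 (median -0.26), with Ndufaf4 at 54.4 and 52.9 CPM against 39.3 and 43.8 CPM (-0.37, edgeR adjusted p = 0.236) and Dmac2 at -0.26. Groups were apart in each of these 4 genes. In the small lists, 1 of 4 factors of complex II (median 0.10; Sdhaf3 -0.60, Sdhaf1 0.26), 4 of 6 of complex III (median -0.08; Uqcc1 -0.28, Bcs1l -0.20) and 4 of 5 of complex V (median -0.20; Tmem70 -0.22, Atpaf1 0.32) had a lower mean. At an unadjusted p under 0.05 by edgeR, 1 of the 17 factors of complex I was lower (5.88%). Of the factors of complexes II, III and V, 0 passed that threshold. By edgeR 0 of these assembly and carrier genes were called at an adjusted p under 0.05.

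Medians of other mitochondrial lists were smaller in size than the -0.24 of the respiratory chain members. In the citrate cycle 14 of 18 genes had a lower mean (median -0.18), with Suclg2 at -0.33 and Suclg1 at -0.37, both subunits of succinyl-CoA synthetase. Of 78 mitochondrial ribosomal proteins 60 had a lower mean (median -0.13), with Mrps6 at 48.6 and 50.1 CPM against 24.1 and 32.0 CPM (-0.81, edgeR adjusted p = 0.111) and Mrpl12 at 115 and 119 CPM against 84.6 and 89.0 CPM (-0.43, edgeR adjusted p = 0.162). At an unadjusted p under 0.05 by edgeR, 5 of these ribosomal proteins were lower (6.41%, against 9.12% of all genes). Of the citrate cycle genes, 0 passed that threshold. Cytosolic ribosomal proteins had 55 of 79 lower, with a median of -0.03, and 3 had groups apart and lower (3.8%, against 24.1% of all genes).

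Markers of cell types also differed between the groups, and their part in the respiratory chain values was not tested. For comparison, 48.5% of all genes tested had a lower mean and 0.763% were called lower by edgeR. Of 14 colonocyte markers tested, 12 had a lower mean and 7 fell by edgeR (Slc15a1, Clca4a, Slc5a8, Aqp8, Mep1a, Krt20 and Cdhr5, list median -3.05), with a summed level of 1861 and 1380 CPM in IEC+/+ and, in IEC-/-, 639.6 and 686.7 CPM. Of 16 general epithelial markers 1 fell by edgeR, Lgals4, a galectin of the gut epithelium (-1.39, edgeR adjusted p = 0.0403), with a median over the list of -0.64. Of 10 goblet markers 9 had a lower mean (median -1.25), 2 fell (Fcgbp and Tff3), and the summed level was 5684 and 3618 CPM against 756.1 and 1530 CPM.

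Smooth muscle markers were higher in IEC+/+ replicate 1 than in the other libraries. Their summed level was 615.8 and 287.9 CPM in IEC+/+ compared with 368.4 and 367.2 CPM in IEC-/-, and 8 of 10 markers had a lower mean (median -0.54). Fibroblast markers were lower in 9 of 10 (median -0.37), at 3824 and 2330 CPM against 2555 and 2167 CPM summed. Endothelial markers were lower in 1 of 10 (median 0.23), at 294.0 and 289.8 CPM against 355.0 and 334.1 CPM. Macrophage and neutrophil markers were lower in 3 of 12 (median 0.43), at 915.7 and 960.0 CPM against 1338 and 1210 CPM, although the neutrophil gene Ly6g fell (-2.23, edgeR adjusted p = 0.0322). T and B cell markers were lower in 3 of 11 (median 0.33), at 632.7 and 741.5 CPM against 283.6 and 2571 CPM. Of 12 adipocyte markers, 6 passed the filter (median -0.92), at 50.48 and 28.19 CPM against 40.79 and 17.92 CPM summed, and Adipoq, Plin1, Lep and Ucp1 had no count.

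**Figure D5:**
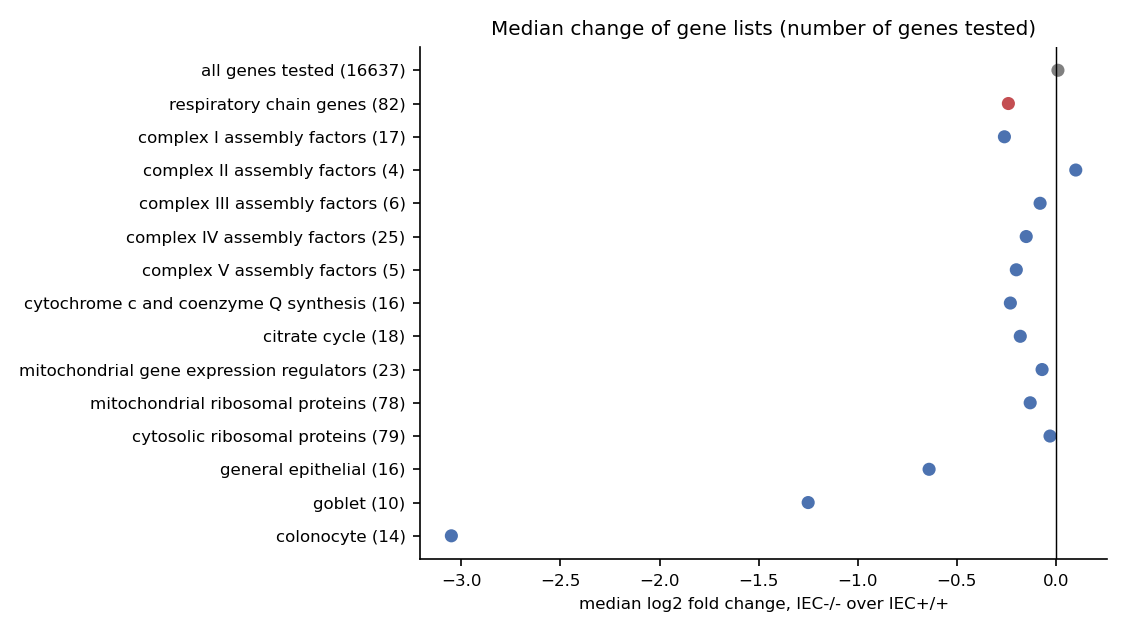
The median log2 fold change of IEC-/- over IEC+/+ (horizontal axis) is drawn for all genes, the respiratory chain genes and 13 other lists, with the number of genes tested in brackets. Respiratory chain genes lie at -0.24 between cytosolic ribosomal proteins at -0.03 and general epithelial markers at -0.64.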

How the data were processed

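Input values were read counts for each gene symbol, whole numbers as the authors deposited them. Among the tools and builds in the submitters' processing notes are TopHat, edgeR, limma and mm10, with no version or role; the counter, annotation and strand are not given in the sources used here. NEBNext Ultra libraries of TRIzol-extracted RNA were read from both ends, per the labels' protocols. Sample titles gave the groups and replicate numbers. Totals were 25472503 to 27218515 counts, so sampling error is small for all but the rare isoforms.

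Counts were fitted with edgeR 4.0.16 in R 4.3.3 (TMM factors 0.955 to 1.05, filterByExpr, quasi-likelihood F-test, Benjamini-Hochberg adjustment over 16637 genes). The common biological coefficient of variation was 0.248. On simulated counts of this comparison with 16637 genes, calls were made for 25.0% of genes set to a log2 change of 1, 75.7% of those at 2 and 0.0852% of unchanged genes. Changes as small as the members' median of -0.24 were not simulated, so the rate of calls at that size is not known. Levels are CPM of the scaled library sizes. Per-length levels use the shortest APPRIS principal transcript of GENCODE M21 in place of the merged exons first planned; this was chosen after seeing the lengths. Coordinates are RefSeq positions (GRCm38). The members and the 22 lists were chosen with earlier results of these data known. The mitochondrially encoded list had 0 matched genes and was not analysed here. Named genes were, in each complex, the 4 members of smallest p and the most abundant per length; all Sdh genes; complex I core subunits, except 1 that is not reported here; tissue-restricted complex IV isoforms with their partners; the 5 largest mean rises; members not passing the filter or sharing counts with a copy; and in each pathway list those called and the 2 of smallest p. Of cell type markers, those called are named. Ndufab1, Cyc1, Cox7a2l, Atp5g1, Atp5g2 and the regulators of the promoter letters were added for their role, after their values were seen. Alternatives were RLE size factors, no filter, DESeq2 1.42.0, a replicate block, each library left out, and a length and GC offset.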

Additional observations from a re-analysis of the deposited data

How the results depend on the processing

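By edgeR, 0 members were called lower with RLE size factors, without a filter, with the replicate block, with a length and GC offset and with each library left out; DESeq2 called 2 lower. Leaving out 1 library gave 0 to 1 members called higher, 2 to 13 lower at an unadjusted p under 0.05, and medians of -0.26 to -0.21 over all members, -0.25 to -0.16 for complex I, -0.34 to -0.18 for II, -0.32 to -0.24 for III, -0.36 to -0.23 for IV and -0.26 to -0.21 for V. With the length and GC offset the median of complex V was -0.22 and that of all members -0.21. The median per-length level in IEC+/+ was 86.4 CPM per kb, and 42.3 by merged exons, an alternative chosen after seeing the data.

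Over 9 alternatives, 70 of 82 members kept their direction and 12 reversed at least once; the cause was not tested. With 1 library left out, the log2 fold change ran from -0.13 to 0.15 for Atp5g2, -0.64 to 0.66 for Cox4i2, -0.27 to 0.41 for Cox6b2, -0.08 to 0.05 for Cox7a2l, -0.07 to 0.16 for Ndufa1, -0.22 to 0.01 for Ndufa13, -0.33 to 0.12 for Ndufa2, -0.20 to 0.02 for Ndufa7, -0.07 to 0.28 for Ndufb4, -0.20 to 0.07 for Ndufs1, -0.26 to 0.23 for Ndufs5 and -0.16 to 0.19 for Ndufv2. With the length and GC offset it reversed to 0.02 for Cox7a2l and 0.00 for Ndufs5.

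The replicate numbers are not stated to pair the samples, and their deviations correlated at 0.16 over 16637 genes. With the replicate number as a block, 15 members were lower at an unadjusted p under 0.05 and the median was -0.24.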
